A study of Homo sapiens with 4 samples.

Results

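The SR splicing factor genes were followed through their RNA 3′ ends in HEK293 cells. Members were the 7 genes SRSF1, SRSF2, SRSF3, SRSF5, SRSF6, SRSF7 and SRSF11, and each was read as all 3′ end reads on its own strand inside a fixed hg19 window. The windows were chromosome 17, 56078000 to 56085000, minus strand, for SRSF1, and chromosome 17, 74730000 to 74733600, minus strand, for SRSF2. SRSF3 was read from chromosome 6, 36562000 to 36573500, plus strand, SRSF5 from chromosome 14, 70193500 to 70239000, plus strand, and SRSF6 from chromosome 20, 42086000 to 42093500, plus strand. SRSF7 was read from chromosome 2, 38970000 to 38979000, minus strand, and SRSF11 from chromosome 1, 70671000 to 70718500, plus strand. The windows were set by position and not by measured values. They held 34 of the 33723 3′ end sites of the series, and 0.197% of reads under CF Im 68 siRNA, 0.173% under CstF-64 siRNA, 0.161% under control siRNA and 0.165% without siRNA.

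The study profiled polyadenylated 3′ ends by A-seq, a method that sequences the last bases of a transcript before its poly(A) tail. HEK293 cells are an established human embryonic kidney line. Each of the 4 groups was 1 library, from cells given a double-stranded siRNA against CF Im 68 (the product of CPSF6), an siRNA against CstF-64 (the product of CSTF2), the control siRNA labelled scrambled-A, or no siRNA. Treated cells were harvested after 3 days. Without replicates, how far cultures of the same kind vary cannot be judged, and every test below compares libraries, not conditions.

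SR proteins bind short exonic sequences of pre-mRNA through RNA recognition motifs and recruit the spliceosome through domains rich in arginine and serine. Several of them control their own level by alternative splicing and by the choice of 3′ end. CF Im 68 belongs to the cleavage factor that recognises UGUA motifs ahead of many poly(A) sites. It carries a domain of the same arginine- and serine-rich kind and is known to bind some SR proteins. CstF-64 contacts GU-rich RNA past the cut, as part of another factor of the cleavage machinery.

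The designed oligos that define the groups and the 3′ ends are shown because every comparison below rests on them. The siRNA strands are given 5′ to 3′ without the 2 unnamed bases that precede them in the labels, and in the adapter the capitals mark the A bases left from the poly(A) tail, which identify a read as a 3′ end.
CF Im 68 siRNA: GACCGAGAUUACAUGGAUA
CstF-64 siRNA: CCUGAAUGGGCGCGAAUUC
3′ adapter: AAAAAAtggaattctcgggtgccaagg

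The libraries held 12792623 reads under CF Im 68 siRNA, 7343112 under CstF-64 siRNA, 13443454 under control siRNA and 15806975 without siRNA. CPSF6 reads stood at 134 RPM (reads scaled to 1000000 library reads) under CF Im 68 siRNA, against 186 RPM under control siRNA and 164 RPM without siRNA. CSTF2 reads stood at 17.0 RPM under CstF-64 siRNA, against 23.7 RPM under control siRNA and 36.8 RPM without siRNA. Each target was lowest of the 4 libraries in the one that names it, but neither was 1.5-fold below both controls. Of genes known to be expressed in HEK293 cells, VIM lay between 874 and 1268 RPM and INA between 94.0 and 213 RPM in the 4 libraries, and PAX2 had 21.9 RPM under CF Im 68 siRNA and 3.68 to 5.21 RPM in the others. The hepatocyte gene ALB and the leukocyte gene PTPRC stayed at or below 0.681 RPM, and the fibroblast gene COL1A1 had 8.29 RPM under CF Im 68 siRNA, 3.68 RPM under CstF-64 siRNA, 14.7 RPM under control siRNA and 13.9 RPM without siRNA. PAX2 was thus at least 1.5-fold above both controls under CF Im 68 siRNA and COL1A1 at least 1.5-fold below both in either depletion, and their part in the results was not tested.

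SR gene transcripts were abundant in every library. Only SRSF5 passed the rule for a changed total, a value of RPM + 1 at least 1.5-fold above or below that of both control libraries, and it was higher under CF Im 68 siRNA. No SR gene total passed under CstF-64 siRNA. A read total follows the amount of polyadenylated RNA of a gene, in which fewer transcripts and fewer expressing cells cannot be told apart.

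SRSF5, an SR protein whose transcript is known to respond quickly to growth signals, had 257 RPM under CF Im 68 siRNA, 201.5 RPM under CstF-64 siRNA, 162 RPM under control siRNA and 138 RPM without siRNA. Its log2 ratio under CF Im 68 siRNA was 0.66 over control siRNA (95% exact interval 0.59 to 0.75) and 0.89 over no siRNA (0.82 to 0.98). The ratios are on the scale of log2(RPM + 1), and the intervals come from the read counts with nothing added. These intervals, like those below, cover counting error only.

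SRSF2, a core component of nuclear speckles, had 466 RPM under CF Im 68 siRNA, 341 RPM under CstF-64 siRNA, 332 RPM under control siRNA and 225 RPM without siRNA. The CF Im 68 library was the highest, but the control libraries differed from each other by a log2 ratio of 0.56, and the ratio over control siRNA alone, 0.49, was under the 1.5-fold limit. SRSF1, the founding member of the family, had 97.2 RPM under CF Im 68 siRNA, 66.9 RPM under CstF-64 siRNA, 62.6 RPM under control siRNA and 78.4 RPM without siRNA. Its log2 ratios under CF Im 68 siRNA were 0.63 over control siRNA and 0.31 over no siRNA, so that it passed the limit against the first control and not against the second.

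SRSF6 had 87.3 RPM under CF Im 68 siRNA, 96.4 RPM under CstF-64 siRNA, 74.7 RPM under control siRNA and 49.98 RPM without siRNA. All 3 siRNA-treated libraries were above the untreated one for this gene, which takes part in the splicing of tau and other transcripts. SRSF7, an SR protein with a zinc knuckle, was lowest under CF Im 68 siRNA, with 165 RPM, against 234 RPM under CstF-64 siRNA, 207 RPM under control siRNA and 245 RPM without siRNA. Its log2 ratios under CF Im 68 siRNA were −0.33 over control siRNA and −0.57 over no siRNA, the lowest of the 7 genes in both comparisons, and did not pass.

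SRSF3, the smallest SR protein, which helps to export mRNA, had 550 RPM under CF Im 68 siRNA, 487 RPM under CstF-64 siRNA, 430 RPM under control siRNA and 500 RPM without siRNA. SRSF11, an SR-related protein, had 346 RPM under CF Im 68 siRNA, 303 RPM under CstF-64 siRNA, 338.5 RPM under control siRNA and 411 RPM without siRNA. Neither gene was 1.5-fold from any control library in either depletion.

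**Figure D1:**
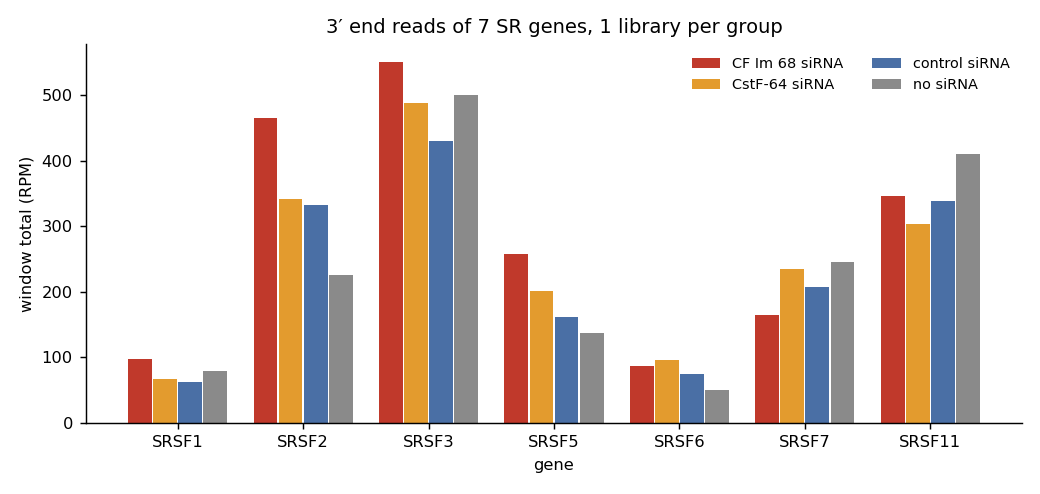
Window totals of the 7 SR genes in RPM (vertical axis), 1 bar per library, with no error bar since each group had 1 library. SRSF5 stands at 257 RPM under CF Im 68 siRNA, above 162 and 138 RPM in the controls, and SRSF7 is lowest under CF Im 68 siRNA.

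These counts were read against those over all loci. The measures are unlike: an SR gene total held all reads of its window, at least 3619 over the libraries, while a locus summed reads in sites and needed 50. The rule called 11.8% of 17881 loci higher and 7.01% lower under CF Im 68 siRNA, against 1 and 0 of the 7 SR genes. Under CstF-64 siRNA it called 5.63% of loci higher and 16.9% lower, against 0 and 0 SR genes. Between control siRNA and no siRNA, 18.3% of loci passed as higher and 8.53% as lower, and no SR gene passed either way. The median log2 ratio over the SR genes was 0.36 under CF Im 68 siRNA over control siRNA and 0.31 over no siRNA, beside 0.02 and 0.13 over all loci. Under CstF-64 siRNA the medians were 0.18 and −0.04 for the SR genes, beside −0.19 and −0.08 over all loci. The ratios depended on the scaling: of the loci called under CstF-64 siRNA, 24.9% were higher with scaling by all reads, 42.9% with TMM factors and 45.9% with DESeq2 size factors. SRSF6 under CstF-64 siRNA had a log2 ratio over control siRNA of 0.36 with all reads, 0.58 with TMM factors and 0.61 with DESeq2 factors. The CF Im 68 ratios over no siRNA were all lower with either, that of SRSF1 at 0.31 with all reads, 0.15 with TMM factors and 0.14 with DESeq2 factors. Some small ratios changed sign. SRSF3 under CF Im 68 siRNA over no siRNA was at 0.14 with all reads, −0.02 with TMM factors and −0.03 with DESeq2 factors. With all reads and with TMM factors, SRSF11 under CstF-64 siRNA over control siRNA was at −0.16 and 0.06, and SRSF7 and SRSF3 under CstF-64 siRNA over no siRNA were at −0.06 and 0.03 and at −0.04 and 0.06.

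Alternative 3′ ends were used by 6 of the 7 genes. Of the 34 sites, clusters of end positions within 25 nt, 18 held at least 5% of the mean reads of their gene and are described one by one. The other 16 held 0.295 to 4.01% each. SRSF1 had 6 of the 18 sites, SRSF6 had 3, SRSF2, SRSF3, SRSF5 and SRSF7 had 2 each, and SRSF11 had 1. Of the 18160 loci of the series, 4792 had at least 2 sites of 5% or more and 50 reads at the 2 most used in every library. Each SR gene had at least 3619 reads over the libraries, and loci were not matched for depth, so these counts are unlike. No hg19 annotation was used here, so sites are placed by coordinate and by distance and are not assigned to exons, introns or UTRs. Reads primed within A-rich stretches were not separated from true ends.

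The position with the most reads within a site was the same in all 4 libraries at all 18 sites. How often this held over all sites of the series was not counted, so it is given as a description. Cleavage at these sites was often concentrated on 1 base: the main position held a median of 79.8% of site reads. The median was 67.1% over the 6867 sites of the series with at least 100 reads in every library. That read limit was not applied to the 18 sites, some of which fall below it, so the sets are unlike. The proximal sites of SRSF5 and SRSF3 were among those with more scattered ends. The main position held 39.5% of reads under CF Im 68 siRNA, 35.4% under CstF-64 siRNA, 35.5% under control siRNA and 51.4% without siRNA at the SRSF5 site at 70238397. At the SRSF3 site at 36570068 it held 39.2%, 44.4%, 41.3% and 40.5% of reads in the same order of libraries.

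To compare site choice, the 2 most used sites of a gene formed a pair, and its proximal share gives the percentage of the reads of both sites that ended at the more upstream one. Fisher's exact test, two-sided, was applied to each pair, adjusted by the Benjamini-Hochberg method over 4792 loci. A move was called where the test against control siRNA gave an adjusted p under 0.05 and the share differed by at least 10 percentage points from both controls in the same direction. Under CF Im 68 siRNA, 3 of 6 SR gene pairs moved to the proximal site (SRSF1, SRSF5 and SRSF7) and 0 to the distal site, beside 24.2% and 2.63% of all loci. The SRSF1 call depended on choosing the pair on all libraries, the depleted ones included. With pairs chosen on the control libraries alone, 2 moved to the proximal site (SRSF5 and SRSF7) and 1 to the distal site (SRSF1). The share over all loci was not computed for that choice. Under CstF-64 siRNA, 1 of 6 moved to the proximal site (SRSF6) and 1 to the distal site (SRSF3), beside 8.2% and 3.59% of all loci. The control libraries themselves differed at 3 of 6 pairs by the 2-library form of the rule, with SRSF1 and SRSF7 more proximal and SRSF3 more distal under control siRNA. Among all loci 10.6% were more proximal and 11.1% more distal in that comparison.

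Against each control alone, with the pairs chosen on all libraries, the counts were as follows. Over control siRNA, 3 of 6 pairs were more proximal and 0 more distal under CF Im 68 siRNA, beside 30.6% and 4.32% of all loci, and 2 were more proximal (SRSF5 and SRSF6) and 1 more distal (SRSF3) under CstF-64 siRNA, beside 10.6% and 5.28%. Over no siRNA, 3 were more proximal and 0 more distal under CF Im 68 siRNA, beside 34.9% and 8.91%, and 3 were more proximal (SRSF1, SRSF6 and SRSF7) and 1 more distal (SRSF3) under CstF-64 siRNA, beside 19% and 13.4%. The comparisons with each control share the depleted library, and those with each depletion share the controls.

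SRSF7 had the largest CF Im 68 differences of the 6 SR gene pairs. Its sites lay at 38972036 and 38970747, 1289 nt apart. The proximal share was 59.0% under CF Im 68 siRNA (exact 95% interval 56.8 to 61.2, 1945 reads), 47.7% under CstF-64 siRNA (45.3 to 50.2), 40.6% under control siRNA (38.7 to 42.5) and 14.3% without siRNA (13.2 to 15.5). No intervals overlapped, and the 3 siRNA-treated libraries were all far above the untreated one. The CF Im 68 library lay 18.4 points above control siRNA (Fisher's exact test, adjusted p = 9.84e-34) and 44.7 points above no siRNA. A rise over control siRNA at least as large was found in 15.4% of all pairs. The control siRNA library was itself 26.2 points above the untreated one (adjusted p = 9.70e-122), a difference that only 0.751% of pairs matched or exceeded.

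Both ends of SRSF7 took part in this difference. The distal site had 62.3 RPM under CF Im 68 siRNA, 114.5 RPM under CstF-64 siRNA, 116 RPM under control siRNA and 205 RPM without siRNA. The proximal site had 89.7 RPM under CF Im 68 siRNA, 105 RPM under CstF-64 siRNA, 79.4 RPM under control siRNA and 34.4 RPM without siRNA. The distal end was thus lowest under CF Im 68 siRNA, while the proximal end lay between 79.4 and 105 RPM in the treated libraries. A smaller site at 38972095, upstream of the proximal one, had the same order of libraries, with 9.22 RPM under CF Im 68 siRNA, 11.8 RPM under CstF-64 siRNA, 7.66 RPM under control siRNA and 2.47 RPM without siRNA.

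SRSF5 had its pair at 70238397 and 70238722, 325 nt apart. The proximal share was 87.5% under CF Im 68 siRNA (86.3 to 88.7, 3217 reads), 82.5% under CstF-64 siRNA (80.5 to 84.5), 70.8% under control siRNA (68.8 to 72.7) and 76.3% without siRNA (74.4 to 78.1). The CF Im 68 library lay 16.7 points above control siRNA (Fisher's exact test, adjusted p = 2.53e-49) and 11.2 points above no siRNA, and here the untreated library was the higher of the controls. CstF-64 siRNA gave 11.7 points over control siRNA and 6.21 points over no siRNA, the second of which was under the 10-point limit.

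In SRSF5 the gain was at the proximal site. That site had 220 RPM under CF Im 68 siRNA, 162 RPM under CstF-64 siRNA, 111 RPM under control siRNA and 101.2 RPM without siRNA. The distal site had 31.3 RPM under CF Im 68 siRNA, 34.2 RPM under CstF-64 siRNA, 45.7 RPM under control siRNA and 31.4 RPM without siRNA. The higher total of SRSF5 under CF Im 68 siRNA was therefore carried by the shorter transcript end.

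SRSF1 used the most sites, which spread over 4382 nt of its window. Its most used pair lay at 56080855 and 56078282, 2573 nt apart. The proximal share was 48.7% under CF Im 68 siRNA (44.3 to 53.2, 507 reads), 45.7% under CstF-64 siRNA (39.4 to 52.2), 37.6% under control siRNA (33.0 to 42.3) and 15.7% without siRNA (12.9 to 18.9). The order was that of SRSF7, with all treated libraries above the untreated one. CF Im 68 siRNA gave 11.2 points over control siRNA (Fisher's exact test, adjusted p = 0.00159) and 33.0 points over no siRNA. The control libraries differed by 21.8 points, and 1.71% of pairs showed a rise as large. The call depended on the pair: with sites chosen on the control libraries alone, the pair became 56078444 and 56078282, 162 nt apart, and its proximal share differed by −13.6 points from control siRNA and by −12.5 points from no siRNA.

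The pair left out the sites that set the CF Im 68 library apart. At 3 neighbouring sites between 56082539 and 56082664, 4257 to 4382 nt upstream of the last site, the CF Im 68 library had 358 reads, the CstF-64 library 28, the control siRNA library 31 and the untreated library 56. Together they made up 30.3% of SRSF1 site reads under CF Im 68 siRNA (27.7 to 33.0), 5.88% under CstF-64 siRNA (3.94 to 8.39), 3.84% under control siRNA (2.62 to 5.41) and 4.69% without siRNA (3.56 to 6.04). These sites were grouped after their values were seen, and the grouped values carry no test. The CF Im 68 library itself brought 2 of the 3 in: without it the site at 56082576 averaged 0.890 RPM, under the limit of 1 RPM for a site, and only with it did the site at 56082539 reach 5% of SRSF1 reads. Its share of the kept sites was 14.9% under CF Im 68 siRNA, 1.75% under CstF-64 siRNA, 1.40% under control siRNA and 2.32% without siRNA, given as a description with no test, since the library with the high share decided that the site was kept. End positions were scattered there, with the main position of that site holding 42.4% of its reads under CF Im 68 siRNA.

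Near the 3′ end of SRSF1, a share was lower in both depletions. The site at 56078444, 162 nt upstream of the last one, had 9.70% of the kept sites' reads under CF Im 68 siRNA and 9.87% under CstF-64 siRNA, against 23.1% under control siRNA and 28.3% without siRNA. It fell by the rule in both depleted libraries (Fisher's exact test, adjusted p = 1.58e-13 under CF Im 68 siRNA and 5.29e-08 under CstF-64 siRNA). The last site, at 56078282, had 26.8% under CF Im 68 siRNA, 29.4% under CstF-64 siRNA, 34.4% under control siRNA and 44.1% without siRNA. In between, the site at 56080723 had 9.46 RPM under CF Im 68 siRNA, 12.1 RPM under CstF-64 siRNA, 5.88 RPM under control siRNA and 3.42 RPM without siRNA, and that at 56081558 had 8.05, 9.12, 6.03 and 9.17 RPM in the same order. In kept SRSF1 sites, the read-weighted mean distance upstream of the last site was 1957 nt under CF Im 68 siRNA and 1686 nt under CstF-64 siRNA. It was 1212 nt under control siRNA and 877 nt without siRNA. The mean includes the site at 56082539, kept only through the CF Im 68 library, and leaves out those at 56082576 and 56082664.

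**Figure D2:**
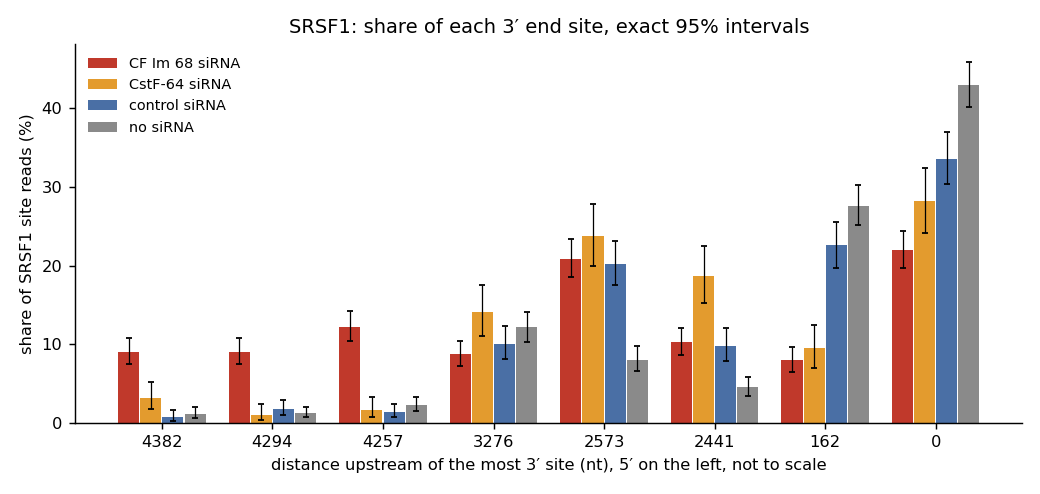
Share of SRSF1 site reads (vertical axis, %) at each of its 8 sites, labelled by distance in nt upstream of the most 3′ site and not drawn to scale, with bars per library and exact 95% counting intervals. The 3 sites 4257 to 4382 nt upstream hold 30.3% of reads together under CF Im 68 siRNA and 3.84 to 5.88% in the other libraries.

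SRSF3 moved to the distal site under CstF-64 siRNA. Its pair lay at 36570068 and 36570560, 492 nt apart. The proximal share was 60.7% under CF Im 68 siRNA (59.5 to 61.9, 6802 reads), 39.7% under CstF-64 siRNA (38.0 to 41.4), 50.9% under control siRNA (49.6 to 52.2) and 70.7% without siRNA (69.7 to 71.7). All treated libraries were below the untreated one, and the CF Im 68 library lay between the controls. The CstF-64 library differed by −11.2 points from control siRNA (Fisher's exact test, adjusted p = 3.97e-23) and by −31.0 points from no siRNA, falls that 6.57% and 1.31% of pairs matched or exceeded.

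The levels of the SRSF3 ends had different orders. The proximal site had 323 RPM under CF Im 68 siRNA, 183.4 RPM under CstF-64 siRNA, 208 RPM under control siRNA and 343 RPM without siRNA. The distal site had 209 RPM under CF Im 68 siRNA, 279 RPM under CstF-64 siRNA, 200 RPM under control siRNA and 142 RPM without siRNA. The CstF-64 library had the lowest proximal and the highest distal level.

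SRSF6 had its pair at 42090331 and 42092243, 1912 nt apart. The proximal share was 56.6% under CF Im 68 siRNA (52.95 to 60.3, 731 reads), 75.3% under CstF-64 siRNA (71.2 to 79.0), 57.5% under control siRNA (53.7 to 61.2) and 58.9% without siRNA (54.7 to 62.9). The CstF-64 library stood alone, 17.8 points above control siRNA (Fisher's exact test, adjusted p = 5.24e-09) and 16.4 points above no siRNA, and 4.44% of all pairs had a rise as large over control siRNA. The other libraries overlapped. Under CF Im 68 siRNA the share differed from control siRNA by −0.84 points (adjusted p = 0.848), which does not show that it was equal. The site at 42090331 had 32.4 RPM under CF Im 68 siRNA, 49.7 RPM under CstF-64 siRNA, 29.8 RPM under control siRNA and 21.4 RPM without siRNA. The distal SRSF6 site at 42092243 had 24.8 RPM under CF Im 68 siRNA, 16.3 RPM under CstF-64 siRNA, 22.02 RPM under control siRNA and 14.9 RPM without siRNA. A further SRSF6 site at 42090190, 2053 nt upstream of the last kept one, had 28.5% of the kept sites' reads under CF Im 68 siRNA, 26.7% under CstF-64 siRNA, 23.2% under control siRNA and 18.2% without siRNA, and did not pass the rule in either depletion.

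SRSF2 had the most even pair, at 74730921 and 74730201, 720 nt apart. The proximal share was 59.5% under CF Im 68 siRNA (58.3 to 60.8, 5897 reads), 47.95% under CstF-64 siRNA (45.97 to 49.9), 52.3% under control siRNA (50.8 to 53.8) and 52.6% without siRNA (50.9 to 54.3). The control siRNA library differed from the untreated one by −0.34 points (adjusted p = 0.858). CF Im 68 siRNA gave 7.26 points over control siRNA (Fisher's exact test, adjusted p = 1.45e-12) and 6.91 points over no siRNA, which was under the 10-point limit although the read numbers were large. CstF-64 siRNA gave −4.32 and −4.66 points over the same controls. The proximal site carried most of the higher SRSF2 total under CF Im 68 siRNA, with 274 RPM, against 162 RPM under CstF-64 siRNA, 172 RPM under control siRNA and 117 RPM without siRNA. The distal SRSF2 site had 187 RPM under CF Im 68 siRNA, 176 RPM under CstF-64 siRNA, 157 RPM under control siRNA and 106 RPM without siRNA.

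SRSF11 had 1 kept site, at 70717684, with 96.2% of its site reads under CF Im 68 siRNA, 96.8% under CstF-64 siRNA, 96.9% under control siRNA and 98.1% without siRNA. A small site 1059 nt upstream, at 70716625, had 55 reads under CF Im 68 siRNA, against 1 under CstF-64 siRNA, 4 under control siRNA and 2 without siRNA, or 4.299, 0.136, 0.298 and 0.127 RPM. It held 1.26% of SRSF11 site reads under CF Im 68 siRNA. The site passed the limit of 1 RPM only through that library, with 0.187 RPM on average in the others, so the filter favoured this difference. A site at 70718731 lay 231 nt beyond the window and is not counted in it. With the window extended to include it, the share of 70717684 over this more distal site was 95.2% under CF Im 68 siRNA, 94.0% under CstF-64 siRNA, 91.8% under control siRNA and 96.4% without siRNA, and no depletion passed the rule.

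**Figure D3:**
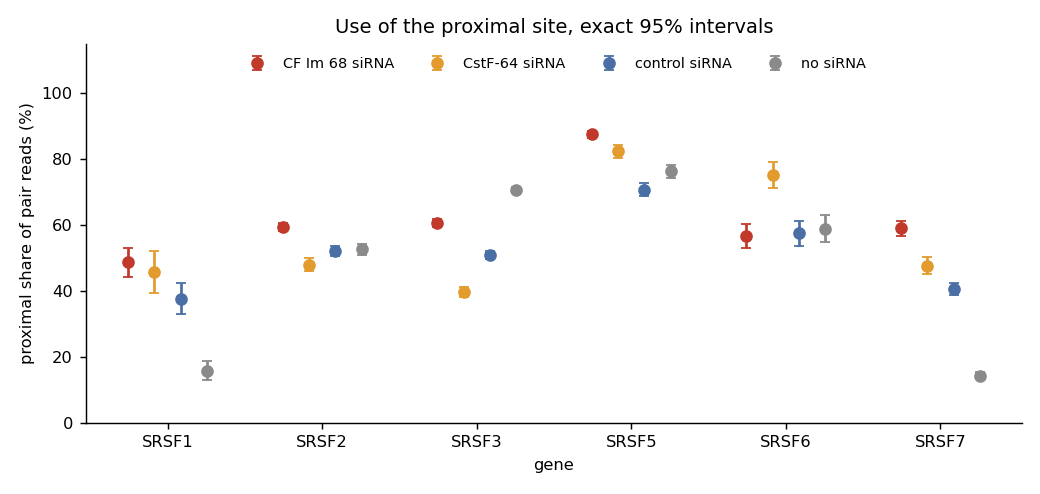
Proximal share of pair reads (vertical axis, %) of the 6 SR genes with 2 or more kept sites, 1 point per library with exact 95% counting intervals. SRSF1 and SRSF7 are lowest without siRNA, SRSF3 is highest without siRNA, and SRSF6 stands out under CstF-64 siRNA at 75.3%.

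**Figure D4:**
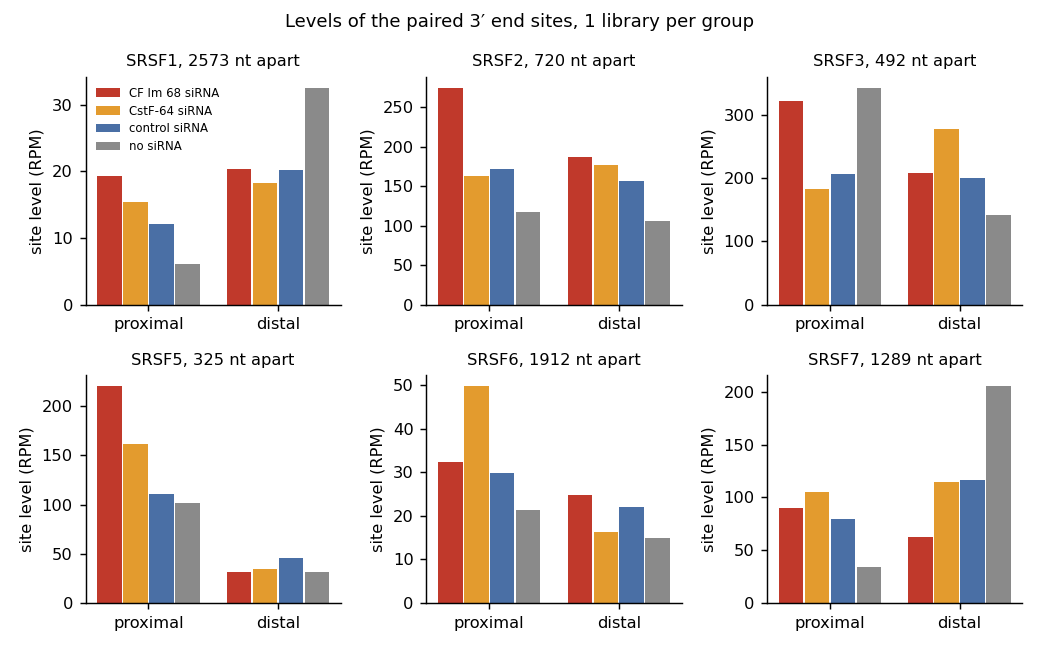
Level in RPM (vertical axes, each from 0) of the proximal and the distal site of each pair, 1 bar per library and no error bar. The SRSF7 distal site is lowest under CF Im 68 siRNA at 62.3 RPM, and the SRSF5 proximal site is highest there at 220 RPM.

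The depletions were also compared directly. The CF Im 68 library was more proximal than the CstF-64 library at 3 of 6 SR gene pairs (SRSF2, SRSF3 and SRSF7) and more distal at 1 (SRSF6), beside 25% and 5.05% of all loci. The differences were 11.6 points for SRSF2, 21.0 points for SRSF3, 11.3 points for SRSF7 and −18.6 points for SRSF6 (Fisher's exact test, adjusted p = 7.03e-21, 2.80e-87, 2.37e-10 and 2.73e-10). For SRSF6 a fall as large was found in 1.63% of all pairs. SRSF1 and SRSF5 differed by 2.97 and 5.002 points and did not pass.

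Tested site by site, 17 kept sites of the 6 genes could be compared. Under CF Im 68 siRNA, 2 had a larger share (SRSF5 at 70238397 and SRSF7 at 38972036), beside 12.2% of 13812 sites. A smaller share was found at 3 (SRSF5 at 70238722, SRSF7 at 38970747 and SRSF1 at 56078444), beside 11.2%. The SRSF1 site at 56082539 also met the limits but is not counted, since it was kept only through the CF Im 68 library. Sites kept in that way were not taken out of the 12.2%, so the shares are unlike. By the rule used for all sites, 3 of the 17 had a larger share. With sites chosen on the control libraries, SRSF5 at 70238397 and SRSF7 at 38972036 had a larger share. Under CstF-64 siRNA, 1 had a larger share (SRSF3 at 36570560) and 3 a smaller one (SRSF3 at 36570068, SRSF6 at 42092243 and SRSF1 at 56078444), beside 4.5% and 4.52%. Between control siRNA and no siRNA, 3 were larger and 2 smaller, beside 7.93% and 8.09%. Sites of 1 gene share its reads, so a gain at one site is a loss at another.

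**Figure D5:**
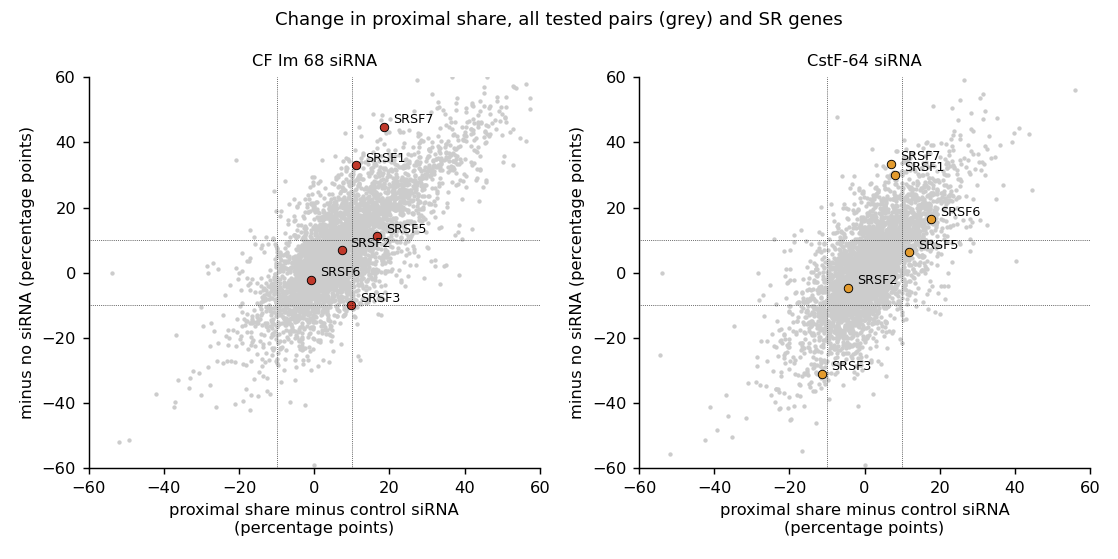
Difference in proximal share from control siRNA (horizontal axis) and from no siRNA (vertical axis), in percentage points, for all 4792 pairs (grey) and the SR genes (coloured), with dotted lines at 10 points. The axes are limited to 60 points, which leaves out 13 pairs for CF Im 68 siRNA (left) and 3 for CstF-64 siRNA (right). SRSF1, SRSF5 and SRSF7 lie in the upper right corner under CF Im 68 siRNA, SRSF1 only with the pair chosen on all libraries, as drawn.

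Other splicing genes were read in the same way. Of 18 further SR proteins, SR-related proteins, SR protein kinases and U2AF subunits, 2 had a higher total and 0 a lower one under CF Im 68 siRNA, beside 11.8% and 7.01% of all loci. These were SRRM2, a large spliceosomal scaffold, with 49.5 RPM under CF Im 68 siRNA, against 28.1 RPM under control siRNA and 22.02 RPM without siRNA, and SREK1, an SR-related regulator, with 62.2 RPM, against 37.0 and 29.0 RPM in the same controls. Under CstF-64 siRNA, 1 was higher and 2 were lower, beside 5.63% and 16.9%. Between control siRNA and no siRNA, 5 of the 18 were higher and 0 lower, beside 18.3% and 8.53%. The SR protein gene SRSF9 had 147 RPM under CstF-64 siRNA, against 83.8 RPM under control siRNA and 43.7 RPM without siRNA. TRA2A, an SR-related splicing activator, had 119 RPM under CstF-64 siRNA, against 199 RPM under control siRNA and 224 RPM without siRNA. CLK3, a kinase of SR proteins, had 10.1 RPM under CstF-64 siRNA, against 18.3 and 18.9 RPM in the same controls. Of the 12 listed genes with a testable pair, 2 moved to the proximal site under CF Im 68 siRNA, SREK1 with 54.7%, against 8.03% under control siRNA and 3.62% without siRNA, and TRA2B with 67.7%, against 55.9% and 40.9%. Under CstF-64 siRNA 1 did, SRSF8 with 75.7% of 74 pair reads, against 47.7% and 65.4%. Its difference from no siRNA was 10.2 points (Fisher's exact test, adjusted p = 0.213), since the rule tests against control siRNA only. At this pair the control siRNA library itself differed from the untreated one by −17.8 points. None of the 12 moved to the distal site in either depletion. The shares over all loci were 24.2% proximal and 2.63% distal under CF Im 68 siRNA and 8.2% and 3.59% under CstF-64 siRNA. Between control siRNA and no siRNA, 2 of the 12 were more proximal and 2 more distal, beside 10.6% and 11.1%.

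By the 3 log2 ratios to the untreated library, the listed gene most like SRSF1 was PNISR, at a Euclidean distance of 0.40. U2AF2 was nearest to SRSF2, at 0.34, and to SRSF6, at 0.49. U2AF1 was nearest to SRSF7, at 0.36, and to SRSF11, at 0.45, while CLK2 was nearest to SRSF3, at 0.30, and SRRM2 to SRSF5, at 0.46. These distances describe 4 libraries and carry no test.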

How the data were processed

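A-seq libraries were made from bead-selected polyadenylated RNA, cut with RNase I and copied from an anchored oligo-dT primer, per the labels' protocols. The authors deposited read counts per single-base 3′ end position and strand, without normalization, and the submitters' processing notes name the build hg19, or GRCh37. The sources used here name no aligner and no treatment of multiple matches or PCR duplicates, so reads shared with pseudogenes cannot be judged. Coordinates are 1-based.

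Positions within 25 nt of the most used one formed a cluster, and clusters with a mean of at least 1 RPM on chromosomes 1 to 22 and X were sites. Sites inside the window of a gene formed its locus, and other sites were grouped within 10000 nt of the most used one. Pairs needed 2 sites with at least 5% of locus reads and 50 reads in every library. Totals were compared for loci whose summed reads reached 50. All 4 libraries entered the choice of sites and pairs. Shares carry exact Clopper-Pearson intervals and ratios exact binomial intervals, and all cover counting error only. Tests used scipy 1.17.1, and the scaling alternatives edgeR 4.0.16 (TMM) and DESeq2 1.42.0. The pair test was checked on simulated data with counting error only. The simulation held no variation between cultures, so it cannot show how often the rule calls pairs through such variation. Windows of the other splicing genes, CPSF6, CSTF2 and the marker genes were set by hand from general knowledge of hg19 gene positions. They were not checked against an annotation. Of the 19 other splicing genes listed, SRSF10 is not analysed here, since its window held no reads in any library.

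All 7 SR genes are named, with each of their sites of at least 5%, and the other splicing genes where they passed a rule. The members and lists were chosen with earlier results of these data known. The 2 settings added after seeing the data were windows extended by 1000 nt and clusters of 100 nt.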

Additional observations from a re-analysis of the deposited data

Results flagged for a closer look

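In SRSF1, reads that fell in no site of at least 1 RPM came to 4.77 RPM (61 reads) under CF Im 68 siRNA, against 2.53 RPM under control siRNA and 2.78 RPM without siRNA, with 2.04 RPM under CstF-64 siRNA. They lie outside the sites compared above and were more than 1.5-fold above both controls. Over the whole libraries, 89.5% of reads lay in sites under CF Im 68 siRNA and 93.0% under CstF-64 siRNA. The shares were 92.3% under control siRNA and 94.2% without siRNA, so reads outside sites were most frequent under CF Im 68 siRNA. Those reads include all mitochondrial reads, which could not form sites. Mitochondrial reads made up 3.75% under CF Im 68 siRNA, 1.79% under CstF-64 siRNA, 1.53% under control siRNA and 1.17% without siRNA. Whether reads outside sites on the other chromosomes differed between libraries was not tested. Under CF Im 68 siRNA, no other SR gene had at least 50 reads outside its sites at more than 1.5-fold both controls.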

How the results depend on the processing

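The following counts of SR genes or sites changed by more than 1.5 times. Here the count of larger sites under CF Im 68 siRNA starts from 3, with the SRSF1 site at 56082539 that was kept only through that library. A 2-fold limit left 0 totals higher under CF Im 68 siRNA. With DESeq2 size factors, 1 total (SRSF6) was higher under CstF-64 siRNA. With control siRNA as the single control, 2 totals were higher under CF Im 68 siRNA, and under CstF-64 siRNA 2 pairs were proximal and 3 sites had a larger share. With no siRNA as the single control, 3 totals were higher and 5 sites larger under CF Im 68 siRNA, and under CstF-64 siRNA 2 totals were higher, 3 pairs proximal, 4 sites larger and 5 smaller. A limit of 5 points gave 5 larger and 5 smaller sites in either depletion, 3 proximal pairs under CstF-64 siRNA, and 2 distal pairs under control siRNA. Clusters of 12 nt left 1 site larger under CF Im 68 siRNA (SRSF7 at 38972036), without those of SRSF5 and SRSF1. With sites and pairs chosen on the control libraries, SRSF1 reversed, with −13.6 and −12.5 points under CF Im 68 siRNA and −15.0 and −13.96 points under CstF-64 siRNA over control siRNA and no siRNA, because another pair was then compared. This gave 1 distal pair under CF Im 68 siRNA, 2 under CstF-64 siRNA and 1 proximal pair under control siRNA. Of 174 such counts, 153 stayed within 1.5 times, including all those under no minimum on sites, positions with 1 read left out and a pseudocount of 0.1 RPM. No paired analysis was possible because each group had 1 library. The CstF-64 library was the shallowest, and SRSF1 rested there on 247 pair reads.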
